A study of Mus musculus with 3 samples.

Results

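The translation initiation and elongation factors are the proteins that load ribosomes onto mRNA, choose the start codon and carry the ribosome along the coding sequence. Their levels were examined in RNA-seq libraries of 3 mouse myoblast lines, numbered 66, 67 and 72. The members were all autosomal protein-coding genes whose symbol begins with Eif1 to Eif6, Eef1 or Eef2, and this rule, which uses no measured value, gave 65 of the 35562 genes in the files. Besides the factors themselves it takes in their kinases, methyltransferases and binding proteins that carry the same name.

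All 3 lines belong to 1 group (n = 3). They are myoblasts, the dividing progeny of muscle satellite cells, of genotype Dmdmdx; Pax7-nGFP, in which a nuclear GFP reporter marks cells that express Pax7. The study used CRISPR/Cas9 so that the exon with the mdx mutation is skipped, which restores the reading frame of the dystrophin gene. By the study's methods, an edited induced pluripotent stem cell line was injected into mouse blastocysts whose own satellite cells can be ablated with tamoxifen through Pax7 Cre/ERT2 and Rosa26 lsl-DTA, and GFP-positive cells were sorted from muscles of the chimeras. The tamoxifen treatment and the chimera of each line are not given in the labels, no control or unedited library was analysed here, and the values therefore describe the edited lines alone. Sums over transcripts cannot show the edit of Dmd itself.

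Initiation begins when eIF2 brings the initiator tRNA to the small ribosomal subunit, with eIF1, eIF1A, eIF3 and eIF5 at hand, while eIF4E, eIF4G and eIF4A bind the mRNA cap and open its leader. In elongation, eEF1A delivers aminoacyl-tRNAs, the eEF1B complex recharges eEF1A with GTP, and eEF2 moves the ribosome by a codon. Muscle is a textbook case of a switch between paralogs, since Eef1a1 is found in most dividing cells and Eef1a2 in mature muscle fibres, heart and neurons.

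Total estimated counts were between 66972426 and 73274315 per line. All 6 myoblast markers on a fixed list, among them Pax7, Myod1 and Des, averaged at least 109 TPM (estimated counts divided by transcript length and scaled to a sum of 1000000 per library). The 4 endothelial markers summed to 0.726 to 1.79 TPM in a line, the 4 immune markers to 3.17 to 4.58 TPM, nearly all of it Cd68, and the 5 pluripotency markers to 0.228 to 0.428 TPM. Of the 4 neuron markers, Tubb3 averaged 40.9 TPM and the others were below 1 TPM. The 6 fibroblast markers summed to 8.29, 28.8 and 37.6 TPM in lines 66, 67 and 72, nearly all of it Col1a2 (7.47, 28.3 and 37.0 TPM), while Lum and Dpt were at 0. The 8 differentiating muscle markers, Myog and Acta1 among them, were all lowest in line 66 and highest in line 72, the order Col1a2 also had, with summed levels of 1212, 1695 and 2066 TPM in lines 66, 67 and 72. In bulk RNA, more cells of a type and more RNA per cell cannot be told apart.

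The coding sequences of most paralogs compared here differ at many bases, which bears on how reads could be assigned. The 4 pairs below are shown because the results turn on them: each line is a stretch of 60 bases of the coding sequence of the leading protein-coding transcript (GENCODE M21), written 5′ to 3′, and capitals mark the bases at which the pair differs.
Eef1a1: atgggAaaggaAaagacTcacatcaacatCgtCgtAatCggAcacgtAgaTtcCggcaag
Eef1a2: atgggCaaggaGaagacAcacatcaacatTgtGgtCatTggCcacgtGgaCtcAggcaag
Eif4a1: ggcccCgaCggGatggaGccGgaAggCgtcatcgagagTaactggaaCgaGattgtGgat
Eif4a2: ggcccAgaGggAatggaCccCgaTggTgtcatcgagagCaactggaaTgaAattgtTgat
Eif5a: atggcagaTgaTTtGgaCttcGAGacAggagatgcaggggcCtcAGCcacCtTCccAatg
Eif5a2: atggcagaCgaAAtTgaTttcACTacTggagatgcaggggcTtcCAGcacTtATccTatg
Eif1: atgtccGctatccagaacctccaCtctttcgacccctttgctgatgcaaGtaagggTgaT
Eif1b: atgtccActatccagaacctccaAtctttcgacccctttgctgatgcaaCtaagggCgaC

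The stretches begin at the start codon, except those of Eif4a1 and Eif4a2, which begin at coding bases 37 and 40, the first stretch of that length with no gap in the alignment. The pairs differ at 11, 11, 17 and 5 of 60 bases in the order shown. Over the whole aligned coding sequence, 80.1% of bases were identical between Eef1a1 and Eef1a2, 78.4% between Eif4a1 and Eif4a2, 73.2% between Eif5a and Eif5a2 and 81.3% between Eif1 and Eif1b. The longest identical run was 25 bases, in Eif1 and Eif1b, so that none of the 4 pairs shared a coding word of 31 bases. Across the members, a median of 1.53% of the 31-base words of a gene also occurred in another listed gene. For 3 members the share was above 50%: Eif3j2 (94.3%), Eif4ebp3 (66.4%) and Eif3j1 (53.3%), whose levels depend on how reads were split and are uncertain. Eif3j1 and Eif3j2 were identical at 100% of 786 aligned coding bases.

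The members were abundant as a group. Of the 65, 57 averaged at least 10 TPM, 34 at least 100 TPM and 8 at least 1000 TPM. Among all detected autosomal protein-coding genes, 46.4% of 17284 reached a mean of 10 TPM and 8.94% reached 100 TPM, compared with 87.7% and 52.3% of the members. The median level of the members was 6.91 ± 0.07 on the log2(TPM + 1) scale (SD, n = 3), against 3.06 ± 0.03 for all those genes. The members together held 31170, 29111 and 28905 TPM in lines 66, 67 and 72, or 2.97% of all TPM on average, and Eef1a1 alone held 39.2% ± 0.8 (SD, n = 3) of this sum.

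**Figure D1:**
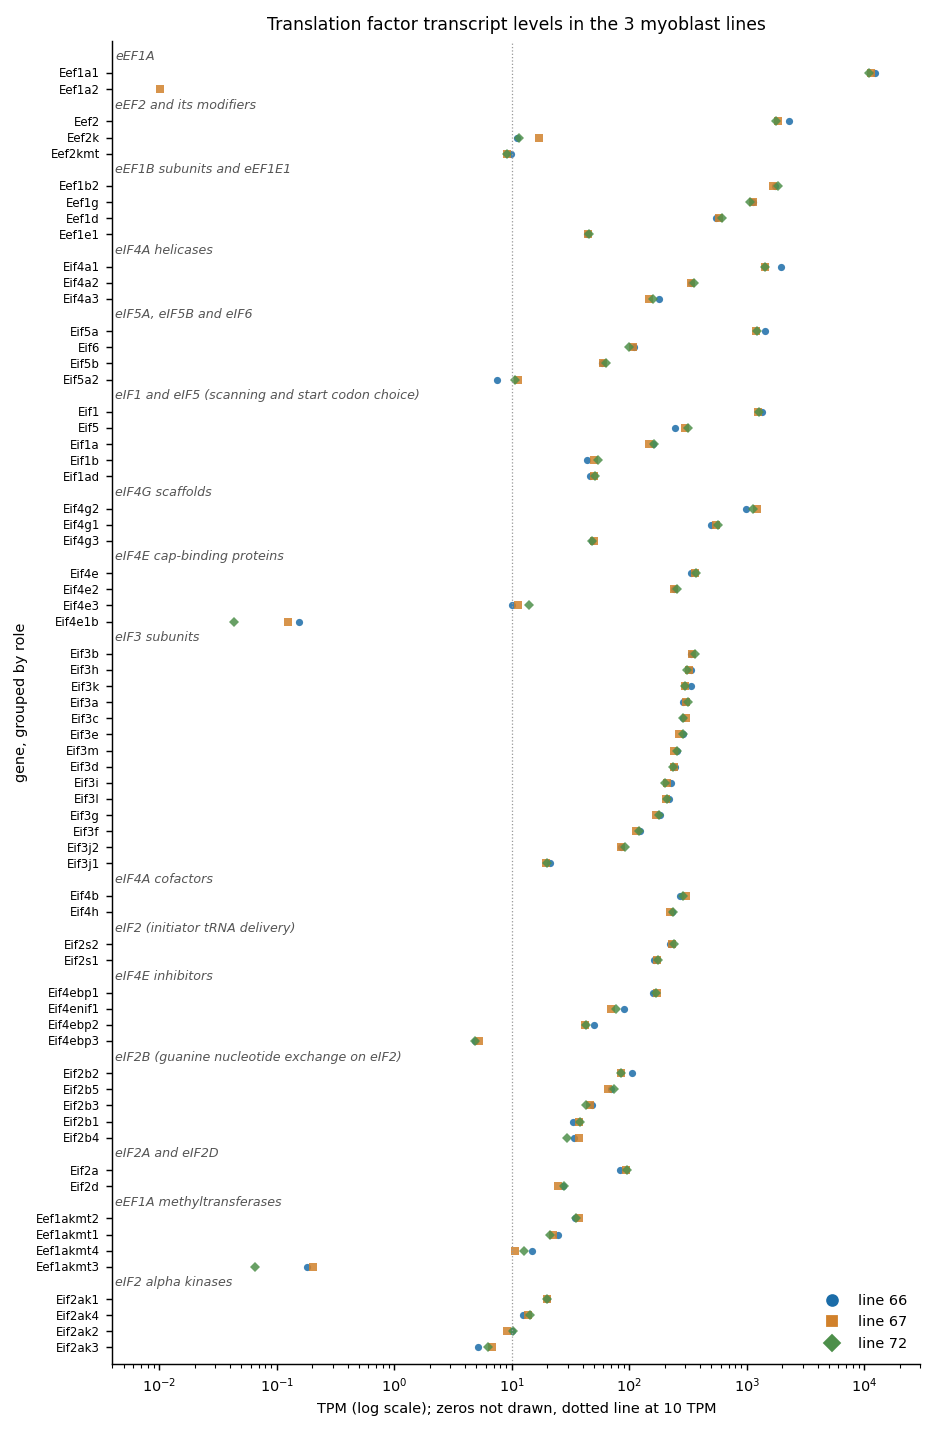
TPM (log scale) of the 65 translation factor genes, grouped by role, with 1 point per line; values of 0 are not drawn. Eef1a1 lies furthest right in each line, 57 genes have a mean right of the dotted line at 10 TPM, and for most genes the 3 points nearly coincide.

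The elongation factors held the top of the range. Eef1a1 (chromosome 9, 78478449 to 78489151, minus strand, GRCm38) had 12405, 11503 and 11053 TPM in lines 66, 67 and 72, a mean of 11654 ± 688 TPM (SD, n = 3), which placed it above 99.99% of detected autosomal protein-coding genes. Eef1a2, the form of mature muscle and neurons, had an estimated count of 0 in line 66, 1 in line 67 and 0 in line 72. Taking 3 counts per library as the limit that a count of 0 allows, the TPM of Eef1a1 was at least 376957-fold higher in line 66 and at least 314389-fold higher in line 72. In line 67, the single count gave a ratio of 1136974, and the exact 95% Poisson interval of that count gave ratios from 204064 to 44908074 (counting error only). In TPM, this limit was 0.0329 for line 66 and 0.0352 for line 72, and both of these libraries held transcripts of differentiating muscle.

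The nucleotide exchange complex of eEF1A was also abundant. Eef1b2, its catalytic subunit, had 1744, 1673 and 1833 TPM in lines 66, 67 and 72. Eef1g, the structural subunit, had 1119, 1137 and 1066 TPM, and Eef1d, a further exchange subunit, had 551, 574 and 612 TPM. Eef1e1, which belongs to the aminoacyl-tRNA synthetase complex and shares only the name series, was lower, at 44.7 ± 1.0 TPM (SD, n = 3). These 4 genes differed between lines by at most 1.111-fold.

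Eef2, the translocase, had 2305, 1830 and 1776 TPM in lines 66, 67 and 72, and line 66 stood 1.30-fold above line 72. Eef2k, the kinase that phosphorylates eEF2 and thereby slows elongation, had 11.04, 17.02 and 11.41 TPM. Line 67 was the highest and the other 2 lines were close together, and the highest line was 1.54-fold above the lowest. Eef2kmt, which methylates eEF2, had 9.37 ± 0.40 TPM (SD, n = 3). Of the eEF1A methyltransferases, Eef1akmt1, Eef1akmt2 and Eef1akmt4 had means between 12.7 and 35.7 TPM, and Eef1akmt3 had only 0.181, 0.205 and 0.0655 TPM.

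Among the factors of scanning and start codon choice, Eif1, which holds the ribosome in an open scanning state, had 1339, 1237 and 1269 TPM in lines 66, 67 and 72. Its paralog Eif1b had 43.6, 50.3 and 54.6 TPM, so that Eif1 was 25.9-fold higher by mean TPM. Counting only transcripts annotated as protein coding lowered this ratio to 9.36. Eif5, the GTPase-activating partner of eIF2, had 243, 301 and 315 TPM. It was lowest in line 66 and 1.30-fold higher in line 72. Eif1a, which works with eIF1, had 156 ± 9 TPM (SD, n = 3), and Eif1ad, a protein with an eIF1A-like domain, had 49.1 ± 2.2 TPM.

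The eIF2 subunits and their exchange factor eIF2B lay at different heights. Eif2s1, the alpha subunit whose phosphorylation restrains initiation under stress, had 163, 170 and 177 TPM, and Eif2s2, the beta subunit, had 221, 232 and 241 TPM. Counting only transcripts annotated as protein coding, the means were 88.8 TPM for Eif2s1 and 231 TPM for Eif2s2. The gamma subunit Eif2s3x is X-linked and therefore no member. With all transcripts counted, it had 165 ± 13 TPM, within 1.403-fold of both partners. Its Y-linked counterpart Eif2s3y was listed at a count of 0 in every line. The 5 eIF2B subunits were less abundant, from 33.4 TPM for Eif2b4 to 91.8 TPM for Eif2b2, which is a 2.74-fold range (4.58-fold in estimated counts scaled per library without correction for length). Eif2a and Eif2d, which deliver initiator tRNA outside the eIF2 route, had 91.5 ± 6.7 and 26.6 ± 1.6 TPM (SD, n = 3).

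The 4 kinases that phosphorylate eIF2 alpha were low among the members, with means of 6.04 to 19.9 TPM, between the 47.4 and the 65.4 percentile of detected autosomal protein-coding genes. Eif2ak1, the heme-regulated kinase, had 19.98, 19.85 and 19.85 TPM. In TPM it had the smallest coefficient of variation of any member above 10 TPM, at 0.390%. Its estimated counts were 4186, 3775 and 3921, and this ranking was not computed under other scalings of the counts. Eif2ak4 (GCN2), which senses uncharged tRNA, had 12.3, 13.7 and 14.4 TPM, Eif2ak2 (PKR), which binds double-stranded RNA, had 10.1, 9.12 and 10.3 TPM, and Eif2ak3 (PERK), the kinase of the endoplasmic reticulum, had 5.12, 6.76 and 6.25 TPM. Eif2ak3 was thus the lowest of the 4 in each line, and the ratios of Eif2ak1, Eif2ak4 and Eif2ak2 to Eif2ak3 were 3.29, 2.23 and 1.63 by mean TPM.

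The 14 eIF3 genes encode the largest initiation factor complex. Leaving out Eif3j1 and Eif3j2, the loosely bound subunit with 2 near-identical gene copies, the other 12 lay between 119 TPM (Eif3f) and 346 TPM (Eif3b), a 2.90-fold range with an SD of 0.44 on the log2(TPM + 1) scale. In estimated counts, which are not corrected for length, these 12 ran more widely, from Eif3g (7694, 6512 and 7035) to Eif3a (50553, 48939 and 52647). Eif3a, the scaffold, had 288, 304 and 317 TPM, and Eif3d, which can itself bind a cap, had 243, 241 and 236 TPM. Eif3j1 had 21.15, 19.63 and 19.95 TPM and Eif3j2 85.2, 84.5 and 91.6 TPM. With both included the range was 17.1-fold. The ratio of Eif3j1 to Eif3j2 was 0.232 in TPM and 0.662 in estimated counts scaled per library without correction for length. No eIF3 gene was more than 1.14-fold apart between lines.

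In the cap-binding group, Eif4e, which binds the cap in general translation, had 334, 359 and 367 TPM in lines 66, 67 and 72, and Eif4e2, which competes with it on repressed mRNAs, had 242, 239 and 257 TPM. Eif4e was higher than Eif4e2 in each line, by 1.44-fold on average, and this was one of the narrowest gaps among the pairs. Eif4e3 had 10.1, 11.2 and 13.9 TPM, 30.1-fold below Eif4e in TPM. In CPM, which are estimated counts scaled to a sum of 1000000 per library without correction for length, the difference fell from 4.81 to 3.52 on the log2 scale. Eif4e3 was highest in line 72, 1.38-fold above line 66. Eif4e1b, the oocyte form, was near the limit of detection with estimated counts of 8, 13 and 3.

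The eIF4G scaffolds, which join the cap-binding protein to the helicase and to eIF3, did not follow the order of their numbers. Eif4g2, a form without the eIF4E-binding part that serves cap-independent initiation, had 985, 1225 and 1133 TPM, and it was above Eif4g1 in each line. Eif4g1 had 499, 544 and 570 TPM, and its ratio to Eif4g2 was 0.482. Eif4g3 had 48.2, 49.9 and 48.5 TPM, 11.01-fold below Eif4g1 (7.18-fold in CPM).

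Eif4a1, the helicase of cap-dependent initiation, had 1962, 1416 and 1433 TPM in lines 66, 67 and 72. Line 66 stood apart, 1.39-fold above line 67. Eif4a2, its close paralog, had 337, 334 and 353 TPM, and the lines differed by at most 1.06-fold. Eif4a1 was 4.70-fold higher by mean TPM, and 10.1-fold higher when only protein-coding transcripts were counted. Eif4a3, the helicase of the exon junction complex, had 179, 146 and 160 TPM. The helicase cofactors Eif4b (272, 307 and 289 TPM) and Eif4h (232, 222 and 235 TPM) were close to each other, with Eif4b 1.26-fold higher by mean TPM.

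Among the inhibitors of eIF4E, the order of the first 2 depended on which transcripts were counted. Eif4ebp1, the mTOR-regulated repressor, had 159, 173 and 167 TPM, and Eif4ebp2, its close relative, had 49.8, 41.7 and 42.8 TPM, a ratio of 3.72. With protein-coding transcripts only, Eif4ebp1 had 37.5, 46.5 and 42.3 TPM and the ratio was 0.941, and in CPM it was 0.609. Eif4ebp3 had 4.84, 5.24 and 4.89 TPM. Eif4enif1, which carries eIF4E into the nucleus, had 89.6, 70.5 and 77.0 TPM.

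Eif5a, which helps ribosomes past proline-rich stretches and carries the rare amino acid hypusine, had 1440, 1190 and 1221 TPM, and Eif5a2 had 7.42, 11.2 and 10.7 TPM. The ratio was 131 by mean TPM, but 194 in line 66 and 106 and 114 in lines 67 and 72, since line 66 was highest for Eif5a and lowest for Eif5a2. In CPM the ratio was 41.5. Eif5b, which joins the ribosomal subunits, had 58.0, 60.2 and 63.1 TPM, and Eif6, which keeps them apart, 106 ± 5 TPM (SD, n = 3).

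In all, 15 pairs of related genes were compared. The first-named gene was higher in every line in 13 pairs, and the second in every line in the other 2, Eif4g1 and Eif4g2 and Eif3j1 and Eif3j2. These counts depend on which gene of a pair was named first, and no share over other pairs of genes was computed. Each difference had the same sign in 3 of 3 lines and exceeded its SD between lines. That SD was at most 0.443 on the log2 scale, and the smallest mean difference was 0.33 ± 0.12, for Eif4b over Eif4h. Lines this close in level leave little room for a change of sign, so the shared sign is a description only. The exact sign-flip test over 3 lines (two-sided) gave p = 0.25 for every pair and an adjusted p of 0.25 over the 15 pairs. This is the smallest p that the sign-flip test allows with 3 lines, so that it cannot reach 0.05.

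**Figure D2:**
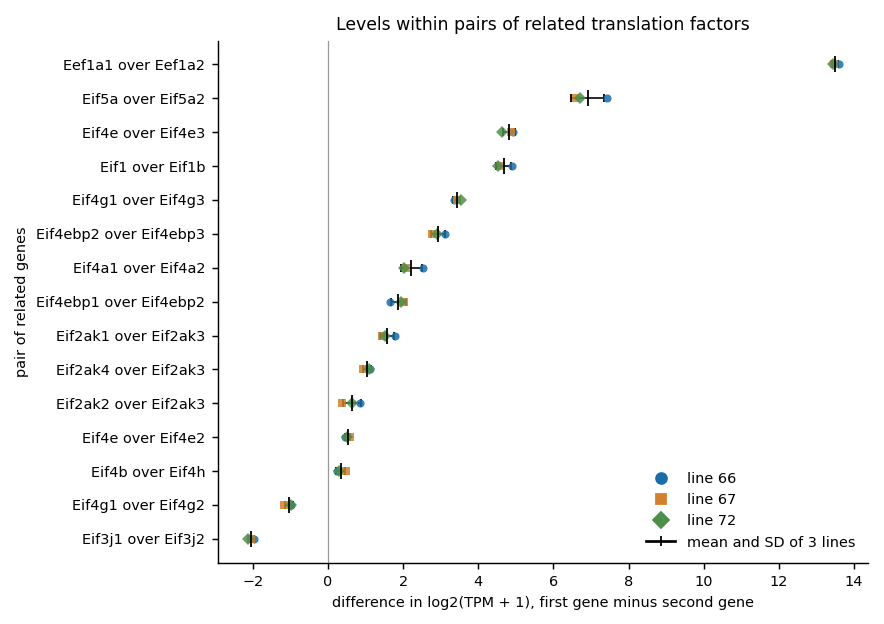
Difference in log2(TPM + 1) between the first and the second gene of 15 pairs, with 1 point per line and the mean and SD of the 3 lines in black. The pairs run from -2.05 for Eif3j1 over Eif3j2 to 13.50 for Eef1a1 over Eef1a2, a value set by the pseudocount of 1 TPM since Eef1a2 was at or near 0, and in no pair do the lines fall on both sides of 0.

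The levels of the members were close between the lines. Of the 57 members averaging at least 10 TPM, all of which also reached 10 TPM in every line, 1 (Eef2k) was more than 1.5-fold apart between the highest and the lowest line, against 9.79% of all 8428 genes with that mean. None was more than 2-fold apart, against 2.47% of all genes. The median fold between the highest and the lowest line was 1.10 for these members and 1.18 for all genes, and the median coefficient of variation was 5.01% and 8.74%. The members are more abundant than most genes, so the comparison was repeated among genes averaging at least 100 TPM, a limit chosen after the data were seen. None of 34 members and 6.48% of 1635 genes then passed 1.5-fold, and the median folds were 1.10 and 1.16.

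Without line 67 the fold of Eef2k was 1.03, and without line 66 it was 1.49, just under the limit, so that no member passed 1.5-fold in either case. The share of all genes past it also fell, from 9.79% to 3.61% without line 66, 5.70% without line 67 and 5.65% without line 72. The next 8 members by fold were Eef1akmt4 (1.39), Eif4a1 (1.39), Eif4e3 (1.38), Eef2 (1.30), Eif5 (1.30), Eif4enif1 (1.27), Eif2b4 (1.26) and Eif1b (1.252), and their highest lines were not the same. Just below the filter, Eif5a2 with a mean of 9.78 TPM was 1.51-fold apart.

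**Figure D3:**
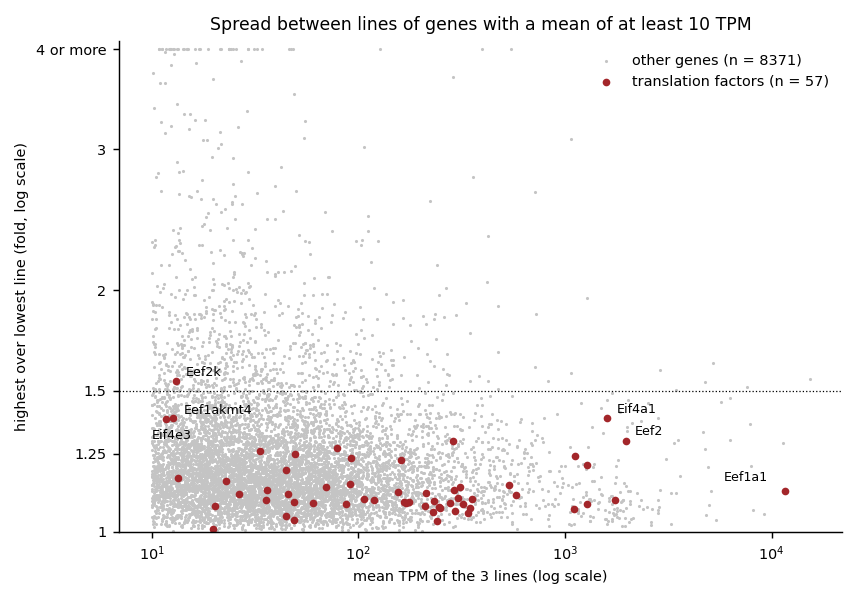
Highest over lowest line (fold, log scale, cut at 4) against mean TPM (log scale) for the 8428 genes averaging at least 10 TPM; translation factors are red. Only Eef2k among the red points lies above the dotted line at 1.5-fold, and Eif4a1 and Eef2 are the highest of those above 1000 TPM.

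Position in the genome went with the line that was highest. Genes of chromosomes 10 and 11 were highest in line 66 in 82.0% of 1126 cases among genes averaging at least 10 TPM, compared with 19.8% of 7302 genes elsewhere. These chromosomes were singled out because earlier results of these data showed their genes shifted in line 66. The shares therefore restate that choice and are no test of it. Of the members, 8 lie on these chromosomes. Eef2, Eif4ebp2, Eif4a1, Eif5a, Eif1, Eif4a3 and Eif4enif1 averaged at least 10 TPM and all 7 were highest in line 66, and the eighth, Eef1akmt3, was too low to be counted.

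Relative to the median gene, these 7 were higher in line 66 than in the mean of the other 2 lines by between 0.15 (Eif1) and 0.52 (Eif4a1) on the log2 scale. The medians of all genes there were 0.29 on chromosome 10 and 0.33 on chromosome 11, and Eif4a1 and Eef2 (0.41) exceeded the median of their chromosome by the most. Of the 8 most abundant members, 4 are in this set, and the summed TPM of the members was 1.08-fold higher in line 66 than in line 72. Without the 8 members on the 2 chromosomes, the sums were 23805, 23179 and 22927 TPM. The part of the chromosome shift in the levels of these genes was not tested beyond this.

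Among the 50 members elsewhere, 16 (32.0%) were highest in line 66. With edgeR's TMM scaling or DESeq2's size factors the number was 23, against 28.4% and 28.1% of all genes elsewhere. Of the 14 eIF3 genes, all among these 50, 9 were highest in line 66 in TPM and under both other scalings, and of the other 36 members 7 were in TPM and 14 under each of the other scalings. Against these counts, 19.8% of all genes elsewhere were highest in line 66 in TPM. The split by eIF3 was not among the comparisons set in advance, and no eIF3 gene was more than 1.14-fold apart between lines. Eef1akmt4 and Eif2b2 had the largest shifts in line 66 outside the 2 chromosomes, at 0.41 and 0.36 on the log2 scale, and Eef2k the largest of any member in line 67. Eif4e3, on chromosome 6, was highest in line 72, where the median of the genes of that chromosome was also raised, by 0.16 on the log2 scale.

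**Figure D4:**
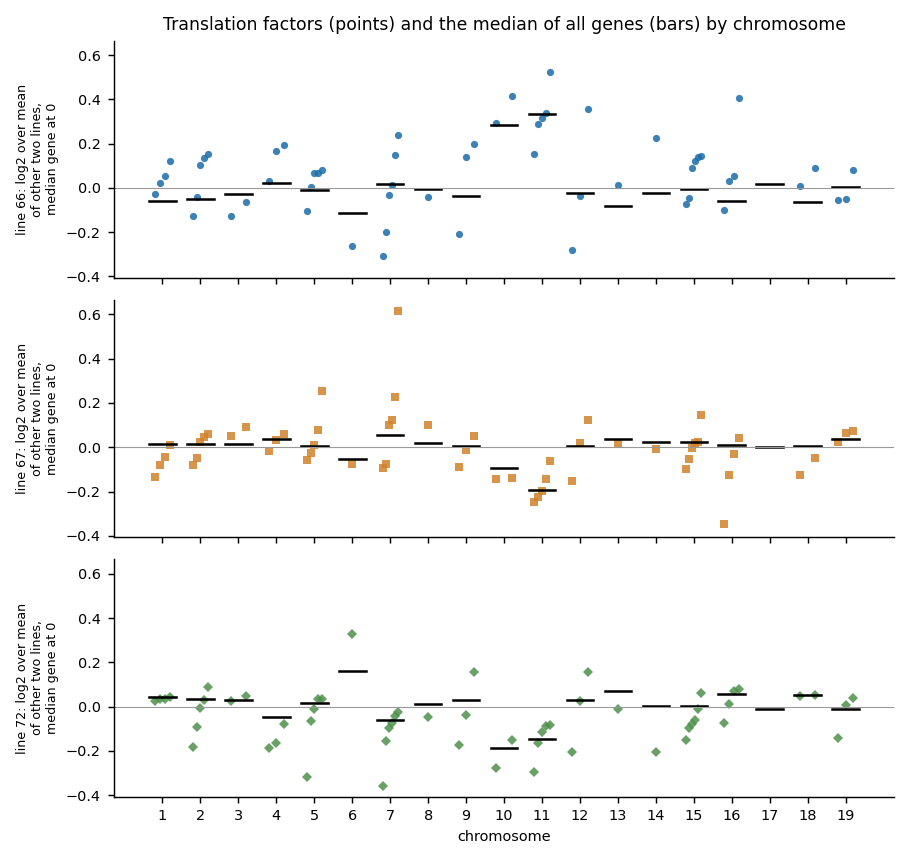
Log2 ratio of each line over the average of the remaining 2, with the median of all genes set to 0, for the 57 members averaging at least 10 TPM (points) and for all genes of each chromosome (bars, medians). In line 66 the 7 members on chromosomes 10 and 11 lie between 0.15 and 0.52, and in line 67 the point above 0.6 on chromosome 7 is Eef2k.

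The order of the differentiating muscle markers, lowest in line 66 and highest in line 72, was shared by 16 of the 57 members (28.1%), against 29.4% of all genes. Eif5, Eif4e3, Eif1b, Eif2s1 and Eif4g1 were among them. This order was looked for after the marker values were seen, and the part of differentiating cells in these levels was not tested.

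For some members much of the signal fell on transcripts that are not annotated as coding for the protein. Transcripts of the class protein coding held a median of 94.8% of the TPM of a member averaging at least 10 TPM, compared with 90.9% for all 8028 autosomal protein-coding genes of that level. In 4 of 57 members (7.02%) the leading transcript by TPM was of another class, against 9.48% of those genes. By estimated counts it was 3 of 57 (5.26%), against 4.90%.

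The 4 were Eef1b2, Eif1, Eif4ebp1 and Eif5b. Eef1b2-205, annotated as subject to nonsense-mediated decay, held 50.3%, 46.7% and 48.3% of Eef1b2 TPM in lines 66, 67 and 72. Eif4ebp1-202, a processed transcript of 798 bases, held 76.4%, 73.1% and 74.7% of Eif4ebp1 TPM, and Eif5b-202, which retains an intron, held 58.8%, 61.9% and 63.6% of Eif5b TPM. The 3 lines were close to each other in each case.

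For some of these genes the result depended on the measure. Coding transcripts held 48.2% of Eef1b2 TPM and 54.7% of its estimated counts, although Eef1b2-205 led by both. Eif1-202, of 383 bases, held 41.9% of Eif1 TPM but 15.6% of its estimated counts, whereas the coding Eif1-201, of 1322 bases, held 35.1% of TPM and 75.1% of counts. In Eif2s1, a noncoding transcript of 433 bases similarly held 47.3% of TPM and 6.19% of counts. TPM divides by the effective length, so short transcripts weigh more in TPM than in counts. Eif4a2 was led by a coding transcript, Eif4a2-202, but only 30.4% of its TPM and 48.7% of its counts lay on coding transcripts, and 2 transcripts annotated for nonsense-mediated decay held 18.2% and 16.6% of TPM.

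**Figure D5:**
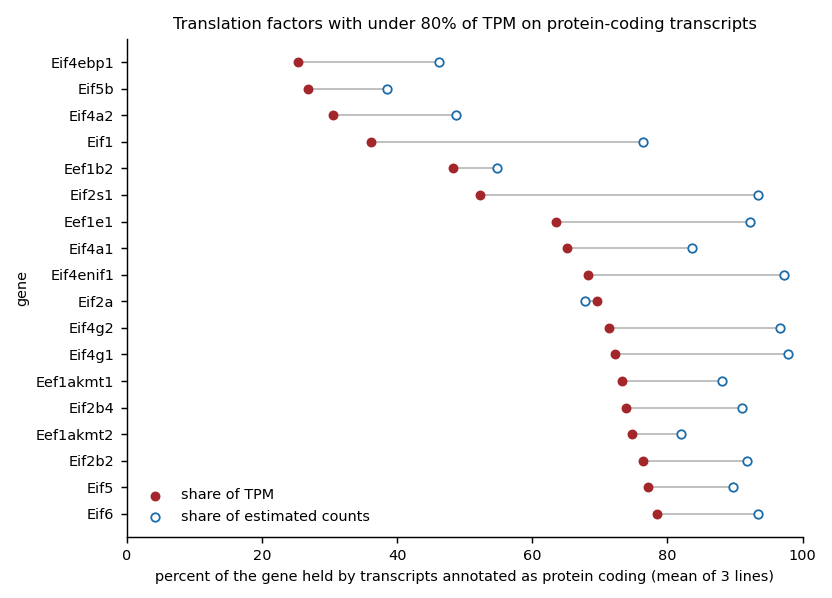
Percent of each gene held by transcripts annotated as protein coding, by TPM (red) and by estimated counts (open circles), means of 3 lines, for the 18 members with under 80% by TPM. Eif4ebp1, Eif5b and Eif4a2 lie below 50% on both measures, and Eif1 and Eif2s1 lie far apart on them.

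The mRNAs of many translation factors begin with a C and a run of pyrimidines, the TOP motif through which mTOR governs their translation. A list of 9 classical TOP mRNAs among the members (Eef1a1, Eef2 and Eef1b2 among them) had a median of 579 TPM and was between 1.066-fold and 1.298-fold apart between lines. The first bases of the leading protein-coding transcript were searched for a C followed by at least 4 bases that are C or T, on the transcript's strand. Of the 65 members, 3 (4.62%) began in this way, compared with 2.32% of 17423 genes. These were Eef1b2, Eif3f and Eif2s1, of which the first 2 are on the TOP list, and their first 20 bases are shown with the run in capitals.
Eef1b2: CTTTTTTTCCCTCagcgctg
Eif3f: CTCTTTCTCggcaagatggc
Eif2s1: CTCTTggttgactaaaactt

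The search reads the annotated first base, which need not be the base at the cap.

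Other genes of the pathway were taken from fixed lists. Of 17 further translation factors, 15 averaged at least 10 TPM, and 1 of them, Dph1, which makes the diphthamide of eEF2, was more than 1.5-fold apart between lines (16.6, 12.8 and 10.4 TPM, on chromosome 11). Dohh, which completes the hypusine of eIF5A, had 57.4, 43.0 and 39.8 TPM and lies on chromosome 10. Both were highest in line 66, and the part of the chromosome shift in this was not tested. Of the other diphthamide genes, Dph2 had 10.7, 9.29 and 9.51 TPM, and Dph5, lowest in line 66, had 13.3, 16.1 and 15.4 TPM. Dhps, the first enzyme of the hypusine route, was lowest in line 66 at 33.4 TPM, against 41.2 and 38.9 TPM. Pabpc1, the poly(A)-binding protein that meets eIF4G, had 1318 ± 30 TPM (SD, n = 3).

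Of the 9 genes that signal to the factors, such as Mtor, Rptor and the eIF4E kinases Mknk1 and Mknk2, none was more than 1.235-fold apart between lines, with means from 17.5 to 82.2 TPM. Among 7 targets of the integrated stress response, which follows phosphorylation of eIF2 alpha, Atf4 had 287, 342 and 333 TPM and Asns 144, 153 and 162 TPM, both lowest in line 66, as were Chac1 and Sesn2. Ddit3 (16.3, 15.0 and 15.6 TPM) and Atf3 (6.88, 4.91 and 5.52 TPM) were instead highest in line 66, and Trib3 (7.75, 9.44 and 7.48 TPM) was lowest in line 72. Ddit3 lies on chromosome 10, and the part of the chromosome shift in its level was not tested. The 6 mitochondrial translation factors reached means from 13.9 TPM (Mtif3) to 131 TPM (Tufm, the mitochondrial relative of eEF1A), and none was more than 1.43-fold apart.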

How the data were processed

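The 3 RNA-seq libraries, from lines 66, 67 and 72, form 1 group, with the line as the replicate. The labels do not say whether the lines came from separate animals, so that the spread between them may be partly technical. The libraries were stranded, made from poly-A-enriched RNA. Per the submitters' processing notes, bcl2fastq 2.20, fastp 0.20 and kallisto 0.46.1 and the build GRCm39 were used, and their settings are not given in the sources used here. The authors deposited, for each of 121798 transcripts, a fractional estimated count and a TPM value (count over effective length, scaled to 1000000 per library).

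Transcripts were matched by identifier to GENCODE M21 (GRCm38), which gave symbols, coordinates and transcript classes. The 1112 without a match (0.493% to 0.535% of counts) were left out. TPM and estimated counts were summed per gene, and between-line comparisons used genes averaging 10 TPM or more. Members and lists were chosen with earlier results of these data known. All members could be named. Those in paralog pairs, the 5 most abundant, those over 1.5-fold apart and those led by a noncoding transcript were given by line, and other genes come from fixed lists. Pairs were compared as log2(TPM + 1) with exact sign-flip tests and Benjamini-Hochberg adjustment over 15 pairs. Limits of detection used 3 counts, and intervals cover counting error only. Coding sequences were aligned globally and 31-base words were compared on both strands. Alternatives were edgeR's TMM and DESeq2's size factors on estimated counts rounded to whole numbers, CPM, protein-coding transcripts only, other filters and pseudocounts, and leaving out each line. The fold calculation was tested on simulated counts. R 4.3.3 with edgeR 4.0.16 and with DESeq2 1.42.0 gave the scaling factors, and all else was done in Python 3.11.15 (numpy 2.4.6, pandas 2.3.3 and scipy 1.17.1, with matplotlib 3.10.9 for the plots).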

Additional observations from a re-analysis of the deposited data

How the results depend on the processing

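Of 90 alternative values for the 15 paralog pairs, 88 kept the direction. The 2 that turned were Eif4ebp1 over Eif4ebp2, at -0.707 on the log2 scale in CPM and at -0.0873 with protein-coding transcripts only, and 12 pairs in place of 13 then had the first gene higher in every line. CPM values are not corrected for length, and 7 pairs moved by over 1.5 times without that correction. Besides Eif4ebp1 over Eif4ebp2 and Eef1a1 over Eef1a2, which rests on 1 count, these were Eif5a over Eif5a2 (6.91 to 5.33 on the log2 scale), Eif4e over Eif4e3 (4.81 to 3.52), Eif4g1 over Eif4g3 (3.43 to 2.84), Eif4ebp2 over Eif4ebp3 (2.93 to 5.89) and Eif3j1 over Eif3j2 (-2.05 to -0.588). The count of members over 1.5-fold apart, 1 as reported, was 2 with a filter at a mean of 1 TPM (19.7% of all genes), 5 of 65 with no filter (52.8%), 0 with a pseudocount of 1 TPM (9.03%), 0 at a mean of at least 100 TPM (6.48%) and between 0 and 1 when a line was left out (3.61% to 5.70%), against 9.79% of all genes as reported. The count over 2-fold was 3 with no filter (Eef1a2, Eif4e1b and Eef1akmt3, all near 0), where 38.7% of all genes passed, and 0 otherwise. With a pseudocount of 0.1 TPM in place of 1, Eef1a1 over Eef1a2 went from 13.5 to 16.8 on the log2 scale. The median level of the members moved from 6.91 to 6.98 in CPM and to 6.46 with protein-coding transcripts only. The range within eIF2B was 4.58-fold and within eIF3 12.3-fold in CPM. In TPM, the range within eIF3 without Eif3j1 and Eif3j2 was 2.90-fold, an alternative chosen after the data were seen. The CPM range without those 2 genes is not given here. The median share of protein-coding transcripts was 97.3% by estimated counts. With TMM or DESeq2 scaling, all 7 members on chromosomes 10 and 11 were still highest in line 66. No paired analysis was possible because there is no second group of libraries. At this depth Eef1a2 had a count of 1 in line 67 and of 0 in the other lines, and the exact sign-flip test over 3 lines cannot give a p below 0.25.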
